A study of Mus musculus with 12 samples.

Results

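The response of mouse B cells to antigen-receptor stimulation was compared between 2 genotypes as a difference of differences, gene by gene. For each gene the 24 h response of Bach2-/- cells (24 h minus 0 h) was set against the 24 h response of wild-type (WT) cells, and the WT response was subtracted from the Bach2-/- response. All 12 arrays of the study and all 22744 genes that passed the filter on dim probes entered the comparison, and 13137 of these genes had a RefSeq symbol. The cells were follicular B cells from the spleens of C57BL/6J mice labelled as male, either WT or lacking Bach2. Purified cells were taken at 0 h, or after 24 h in culture with 10 µg/mL of an anti-mouse IgM Fab’ antibody, which crosslinks the B cell receptor. The 4 groups were therefore WT at 0 h, WT at 24 h, Bach2-/- at 0 h and Bach2-/- at 24 h, with 3 arrays each and 1 colour (Cy3) per array. The study asked why B cells without Bach2 divide poorly after receptor stimulation. The labels do not give the age of the mice, the exons deleted, or whether replicates came from separate mice, so p-values reflect no more than how far these samples differ from each other, and that may be technical.

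Follicular B cells are resting lymphocytes that leave quiescence when antigen binds their receptor. Receptor signalling through SYK, calcium, MAP kinases and NF-κB induces MYC, ribosome production and metabolic genes, and the cells then replicate DNA and divide. BACH2 is a transcriptional repressor of the basic leucine zipper class that pairs with small MAF proteins at MAF recognition elements, which contain the AP-1 motif TGACTCA. Heme binds BACH2 and lowers its activity. In B cells it is known for restraining Prdm1, which encodes the plasma cell regulator BLIMP1, and for sharing target sites with its relative BACH1, the repressor of heme oxygenase 1. Interaction effects separate genes whose response to the stimulus differs by genotype from genes that are shifted by the same amount at both times.

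The log2 signal used throughout is each probe's signal relative to the 75th percentile of its array, so 0 stands for that percentile and 1 log2 unit is a 2-fold difference. A response is the 24 h level minus the 0 h level in 1 genotype, and the response difference is the Bach2-/- response minus the WT response, given ± its standard error (SE). Tests were made with limma, with the replicate number as a block, and p-values were adjusted over all 22744 genes by the Benjamini-Hochberg method, with a threshold of 0.05. The array's 75th percentile signal lay between 97.3 and 357.5, and between 50.9% and 66.7% of probes were well above background. The array Bach2-/- 24 h replicate 2 had the lowest percentile signal and the most outlier spots, 511. All 10 follicular B cell markers checked, among them Cd79a, Pax5, Cr2 and Fcer2a, were well above background on all 12 arrays. The Y-linked genes Ddx3y, Uty and Eif2s3y were well above background on 11 arrays and not on Bach2-/- 0 h replicate 1. Kdm5d, also Y-linked, was well above background on 9 arrays, and not on replicate 1 of WT 0 h, WT 24 h and Bach2-/- 0 h. Xist, transcribed from the inactive X chromosome of females, was well above background on 5 arrays. Those 5 were the replicate 1 array of each group and Bach2-/- 0 h replicate 3. The replicate 1 arrays lay on slide 2 and the other 8 arrays on slide 1, so replicate 1 and its slide cannot be told apart. Counts are given below also without the 5 arrays with Xist signal, and without Bach2-/- 0 h replicate 1 and Bach2-/- 24 h replicate 2. In bulk samples, fewer cells of a type and less RNA per cell cannot be told apart.

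Bach2 itself was measured first, since it checks the genotype labels. The reported probe read 3.79, 3.23 and 3.54 in unstimulated and 3.49, 3.06 and 3.55 in stimulated WT cells. It read 1.11, 0.80 and 0.96 in unstimulated and -0.072, -1.01 and -0.086 in stimulated Bach2-/- cells. Every Bach2-/- array lay below every WT array, and the Bach2-/- 24 h arrays lay below the Bach2-/- 0 h arrays. A second Bach2 probe cleared the background in each of 6 WT samples but in 0 of 6 Bach2-/- samples. The positions of the probes relative to the deleted part are not given in the sources used here. The reported probe's response was -0.15 in WT and -1.35 in Bach2-/- cells, a response difference of -1.20 ± 0.23 (SE, adjusted p = 0.0252). The second probe has only a bound in Bach2-/- cells and gave a response difference of the opposite sign, so no direction is drawn from Bach2. The call was made in 9 of 29 alternatives, was absent without the replicate block (adjusted p = 0.442) and was lost on leaving out any 1 of 8 arrays (adjusted p from 0.0528 to 0.0858).

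The stimulus changed both genotypes, and the responses mostly shared their direction. The WT response passed its own test for 10746 genes (47.2%) and the Bach2-/- response for 7702 genes (33.9%). Of the WT responses, 90.7% had the same sign in Bach2-/- cells, and 77.7% were smaller there, with a median size of 1.01 in WT and 0.60 in Bach2-/- cells. Of the Bach2-/- responses, 92.0% had the same sign in WT cells, and 43.5% were smaller in Bach2-/- than in WT cells. Of 6344 WT rises 87.2% were smaller in Bach2-/- cells, and of 4402 WT falls 64.1%. These shares are descriptions, since a response picked for its size in 1 genotype tends to be smaller in the other.

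The response difference passed its test for 1157 genes, 5.09% of those tested, of which 431 (1.9%) were higher and 726 (3.19%) were lower in Bach2-/- cells. Without adjustment, 6143 genes (27%) had p under 0.05, and counts at that level are given below as unadjusted. The median response difference of all genes was -0.088. List members called higher or lower below are so by their response difference, and their levels can differ the other way. A response was called blunted when the WT response passed its test and the Bach2-/- response was smaller in size, exaggerated when the Bach2-/- response passed and was the larger, and sign-changing when both passed with opposite signs. There were 582 blunted responses (2.56%), made up of 442 WT rises and 140 WT falls. There were 490 exaggerated responses (2.15%), of which 240 were higher and 250 lower in Bach2-/- cells. Sign-changing responses numbered 85 (0.374%), with 51 from a WT fall to a Bach2-/- rise and 34 from a WT rise to a Bach2-/- fall. The difference exceeded 2-fold in 944 of the 1157 genes and belonged to genes well above background on all 12 arrays in 899. The 2 response estimates had opposite signs in 402 genes, most of them with only 1 response past its own test.

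The replicate block decided most of these calls. Without it 78 genes (0.343%) passed, all of them among the 1157, with 59 higher and 19 lower, so that 75.6% were higher instead of 37.3%. At an unadjusted p under 0.05 that fit held 1775 genes (7.8%). Deviations from the group means correlated among arrays with the same number at r = 0.47 to 0.89 over genes. Arrays with other numbers on slide 1 correlated at 0.25 to 0.64, and arrays of different slides at -0.82 to -0.42. On slide 1 alone, which is the set without replicate 1, 125 genes passed (75.2% higher), with 28 blunted, 74 exaggerated and 23 sign-changing. Without the 2 doubted arrays 287 passed (63.8% higher), and without the 5 arrays with Xist signal 11 passed, all higher (2372 genes at an unadjusted p under 0.05 with limma). That last set leaves 1 array of unstimulated Bach2-/- cells, which is assumed to vary like the other groups. Single arrays moved the count from 276 without WT 0 h replicate 3 to 2990 without WT 0 h replicate 2. Scaling on the array median gave 28.5% higher, with a median of all genes of -0.41, and normexp background correction gave 26.7% higher.

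**Figure D1:**
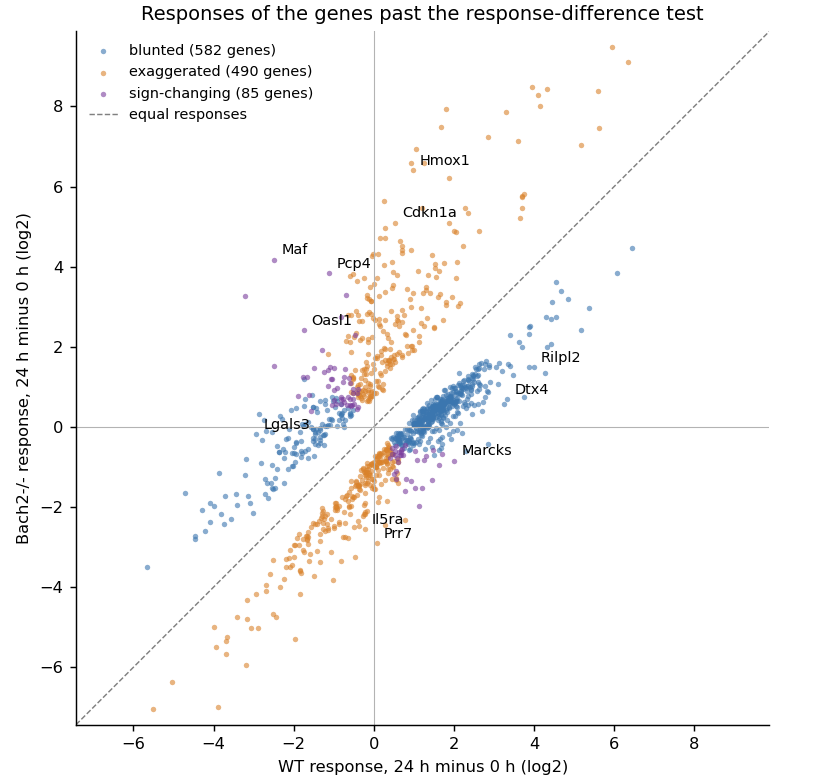
Response of each gene to 24 h of anti-IgM in WT cells (x axis, log2) against Bach2-/- cells (y axis, log2), for the 1157 genes past the response-difference test, coloured by class. Hmox1, Cdkn1a, Pcp4 and Maf stand far above the dashed line of equal responses, and blunted rises lie below it to the right.

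Exaggerated rises included the largest response difference among symbol-bearing genes above background on all arrays, that of Hmox1. The leading genes were Hmox1, which encodes the heme-degrading enzyme heme oxygenase 1, Cdkn1a, which encodes the CDK inhibitor p21, Rgs16, a GTPase activator for G proteins, Il2rb, the β chain of the IL-2 and IL-15 receptors, Acod1, which makes itaconate, and Cd5l, a secreted scavenger receptor protein. Hmox1 read -0.95, -1.22 and -1.31 in unstimulated and -0.22, -0.056 and -0.27 in stimulated WT cells. It read -0.31, -0.73 and -0.64 in unstimulated and 6.0, 5.94 and 5.61 in stimulated Bach2-/- cells. The Bach2-/- 24 h arrays lay above all 9 others without overlap. The response was 0.98 in WT and 6.41 in Bach2-/- cells, a difference of 5.44 ± 0.21 (SE, adjusted p = 5.77e-06). Cdkn1a read -2.87, -3.02 and -3.05 in unstimulated and -2.01, -2.33 and -2.98 in stimulated WT cells. It read -3.27, -3.81 and -3.92 in unstimulated and 1.89, 1.41 and 1.0 in stimulated Bach2-/- cells. Its 3 stimulated Bach2-/- arrays again lay above every other array, and its response difference was 4.56 ± 0.24 (adjusted p = 4.41e-05).

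Rgs16 rose in both genotypes, by 3.94 in WT and 8.49 in Bach2-/- cells, with a response difference of 4.55 ± 0.29 (adjusted p = 0.000122). Il2rb read -2.18, -2.44 and -1.72 in unstimulated and -2.65, -2.56 and -2.68 in stimulated WT cells. It read -1.28, -2.25 and -1.95 in unstimulated and 2.07, 1.87 and 2.03 in stimulated Bach2-/- cells. The stimulated Bach2-/- arrays lay above the other 9 and the stimulated WT arrays below all others, with a response difference of 4.33 ± 0.32 (adjusted p = 0.000239). Acod1 had a WT response of -0.037 and a Bach2-/- response of 4.28, a difference of 4.31 ± 0.38 (adjusted p = 0.000679). Cd5l rose in both genotypes, by 4.10 in WT and 8.28 in Bach2-/- cells, a difference of 4.18 ± 0.65 (adjusted p = 0.0114). Hmox1, Cdkn1a, Il2rb and Acod1 passed in all 29 alternatives, Rgs16 in 28 of 29 and Cd5l in 25 of 29. These 6 passed with and without the replicate block. Il2rb is also carried by natural killer (NK) cells, and the summed linear signal of 11 NK markers, Il2rb included, was 9.17 to 13.2 on WT 0 h arrays, 8.66 to 10.4 on WT 24 h arrays, 14.9 to 17.2 on Bach2-/- 0 h arrays and 17 to 18.8 on Bach2-/- 24 h arrays. Il2rb's own rise is within the Bach2-/- 24 h sums, so they do not show a rise of the other NK markers. The part of other cells in the result was not tested.

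Of the 1157 genes, 120 were not well above background on any array of at least 1 group, so their fold change against such a group is a lower bound, taken on each such array against the lowest signal well above background or the probe's own signal, whichever was higher. Plau, which encodes urokinase, was at least 110.0-fold higher at 24 h than at 0 h in Bach2-/- cells and at least 83.6-fold higher in Bach2-/- than in WT cells at 24 h, and its fitted response difference was 6.12 ± 0.33 (adjusted p = 4.41e-05). Ndrg4 rose at least 178-fold in Bach2-/- cells, and Ptgir, the prostacyclin receptor, at least 44.2-fold. Fitted response differences of both genes, 5.79 ± 0.58 and 5.64 ± 0.74, passed the test (adjusted p = 0.00135 and 0.00534). They rest on dim signals on the WT or 0 h side and are no bounds themselves.

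**Figure D2:**
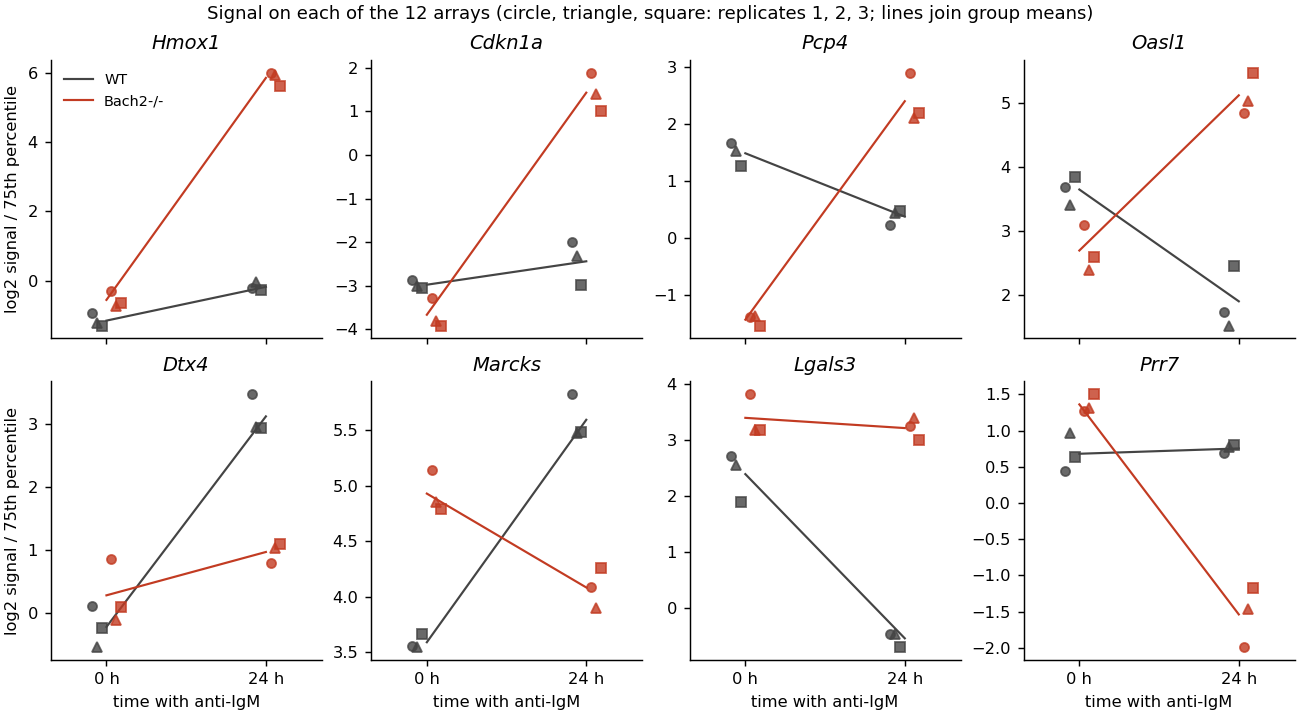
Log2 signal (y axis) of 8 genes on each of the 12 arrays at 0 h and 24 h (x axis), WT in grey and Bach2-/- in red, with lines joining group means and symbols for the replicate number. In the panels of Hmox1 and Cdkn1a the stimulated Bach2-/- arrays lie above all other arrays.

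Heme and oxidative stress genes included several of the exaggerated rises. Of 29 tested members of this list, 6 had a higher response difference and 0 a lower one (unadjusted, 9 higher and 5 lower), beside 1.9% higher among all genes. The 6 were Hmox1, Me1, Srxn1, Nqo1, Fth1 and Slc48a1. The list's median was 0.14 (from -0.18 to 0.37 over the alternatives). Srxn1, the sulfiredoxin that repairs oxidised peroxiredoxins, rose at least 3.41-fold in WT and at least 77.6-fold in Bach2-/- cells, with a response difference of 4.57 ± 0.44 (adjusted p = 0.00112). Nqo1, a quinone reductase, rose at least 16.9-fold in WT and at least 150.0-fold in Bach2-/- cells, with a difference of 2.79 ± 0.33 (adjusted p = 0.00314). Me1, the cytosolic malic enzyme that makes NADPH, rose at least 3.82-fold in Bach2-/- cells. On the other 9 arrays Me1 was not well above background, so its fitted difference rests on those dim values. The filter kept Me1 through the stimulated Bach2-/- group alone, so its place among the 6 adds nothing to the comparison with all genes. Srxn1 and Nqo1 were well above background on 3 arrays of each stimulated group and on 0 unstimulated arrays. Their fitted differences therefore rest on dim 0 h values. Me1 passed in 26 of 28 alternatives, but not under normexp correction or with no filter on dim probes, where the difference was as low as 0.77. Without the block 4 of the 6 still passed, Hmox1, Me1, Srxn1 and Nqo1. Of these, Hmox1 alone was well above background in every group, and Me1 again adds nothing to the comparison.

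The AP-1 motif TGACTCA, which is also the core of the MAF recognition element, was searched on both strands in the 300 bases around each RefSeq start (250 before and 50 after, assembly GRCm38.p6). It was found in 4.604% of the promoters of 10534 tested genes. Among genes past the test it was found in 9.155% of 142 promoters of exaggerated responses that were higher, 6.509% of 169 that were exaggerated and lower, 3.704% of 270 blunted rises and 6.061% of 66 blunted falls. Sign-changing genes gave 4.167% of 24 promoters for fall to rise and 6.667% of 15 for rise to fall. The E-box CACGTG, which MYC binds, was found in 11.259% of all promoters, in 15.556% of the blunted rises and in 3.03% of the blunted falls. Its share was 14.789% in exaggerated genes that were higher and 14.793% in those that were lower, 12.5% for fall to rise and 13.333% for rise to fall. For 1 member of each direction of the exaggerated and blunted classes, the 250 bases before the start are printed 5′ to 3′ on the gene's strand, with the motif or its reverse complement in capitals. A match describes these letters and shows no binding. The printed genes were taken from named genes with a TGACTCA match. No such match was recorded for Hmox1, Cdkn1a, Rgs16, Il2rb, Acod1 or Cd5l, the leading exaggerated rises. Srxn1 stands for an exaggerated rise and has matches starting -102 and -45 bases from the start. Il5ra, an exaggerated fall, has 1 at -99, Tnfsf14, a blunted rise, 1 at -160, and Anxa2, a blunted fall, 1 at -95.
Srxn1 chr2:152105274-152105523 (+): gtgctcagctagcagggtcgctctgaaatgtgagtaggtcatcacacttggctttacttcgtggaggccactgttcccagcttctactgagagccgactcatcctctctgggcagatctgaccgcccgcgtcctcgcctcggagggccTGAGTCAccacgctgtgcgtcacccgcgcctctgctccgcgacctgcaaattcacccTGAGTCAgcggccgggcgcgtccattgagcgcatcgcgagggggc
Il5ra chr6:106749038-106749287 (-): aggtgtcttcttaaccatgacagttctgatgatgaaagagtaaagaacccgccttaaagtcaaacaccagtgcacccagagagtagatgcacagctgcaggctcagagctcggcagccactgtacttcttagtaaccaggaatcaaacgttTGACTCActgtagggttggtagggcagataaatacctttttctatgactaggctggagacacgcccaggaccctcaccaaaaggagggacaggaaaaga
Tnfsf14 chr17:57194182-57194431 (-): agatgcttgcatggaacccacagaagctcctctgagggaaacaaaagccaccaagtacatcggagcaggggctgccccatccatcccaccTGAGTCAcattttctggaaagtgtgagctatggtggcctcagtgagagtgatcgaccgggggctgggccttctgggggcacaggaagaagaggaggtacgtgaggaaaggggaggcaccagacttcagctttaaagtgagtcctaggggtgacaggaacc
Anxa2 chr9:69453433-69453682 (+): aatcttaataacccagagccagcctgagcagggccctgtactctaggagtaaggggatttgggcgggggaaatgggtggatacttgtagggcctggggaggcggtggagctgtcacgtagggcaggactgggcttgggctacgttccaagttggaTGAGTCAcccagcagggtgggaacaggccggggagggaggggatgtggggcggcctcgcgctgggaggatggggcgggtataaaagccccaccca

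CDK inhibitors are named in the study's title. Of 7 tested, Cdkn1a and Cdkn2b were exaggerated rises that passed with and without the block, and 0 were lower (unadjusted, 3 higher and 0 lower), beside 1.9% higher and 3.19% lower among all genes. The median of the list was -0.092 (from -0.41 to 0.26 over the alternatives). Cdkn2b, which encodes the INK4 protein p15, read -5.48, -6.47 and -5.89 in unstimulated and -5.44, -6.19 and -5.46 in stimulated WT cells. It read -4.79, -5.73 and -5.33 in unstimulated and 0.12, 0.58 and 0.40 in stimulated Bach2-/- cells. It was at least 31.6-fold higher in Bach2-/- than in WT cells at 24 h, and its fitted response difference was 5.40 ± 0.36 (adjusted p = 0.00015). Cdkn2b was well above background on 3 stimulated and 1 unstimulated Bach2-/- array and on 0 arrays of either WT group. The filter therefore kept it through the stimulated Bach2-/- group alone, and its fitted difference and p-value rest on dim values elsewhere. The comparison of this list with all genes thus rests on Cdkn1a, which was well above background in every group. Cdkn2a, which encodes p16 and ARF, was at least 21.6-fold higher in Bach2-/- than in WT cells at 24 h, but its response difference of 3.44 ± 0.90 (adjusted p = 0.057) missed the threshold and passed in 4 of 28 alternatives. Cdkn1b, which encodes p27, had responses of -1.26 in WT and -1.45 in Bach2-/- cells, and its response difference was -0.19 ± 0.22 (adjusted p = 0.592).

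Exaggerated falls went the other way. The 6 largest were Prr7, a membrane adaptor, Kynu, a kynurenine pathway enzyme, Il5ra, the IL-5 receptor α chain, Sspn, sarcospan, Ell3, an elongation factor, and Lmna, which encodes lamin A and C. Prr7 read 0.44, 0.97 and 0.63 in unstimulated and 0.69, 0.77 and 0.80 in stimulated WT cells. It read 1.27, 1.31 and 1.50 in unstimulated and -1.99, -1.46 and -1.17 in stimulated Bach2-/- cells. The stimulated Bach2-/- arrays lay below the other 9, and the response difference was -2.97 ± 0.25 (adjusted p = 0.000496). Il5ra read 2.84, 2.34 and 2.06 in unstimulated and 2.54, 1.84 and 2.18 in stimulated WT cells. It read 2.41, 1.84 and 1.92 in unstimulated and -0.54, -0.67 and -0.29 in stimulated Bach2-/- cells. Its WT arrays overlapped between times and its stimulated Bach2-/- arrays lay below all others, a difference of -2.33 ± 0.27 (adjusted p = 0.00287). Both genes passed with and without the block.

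Kynu fell in both genotypes, with responses of -1.02 in WT and -3.81 in Bach2-/- cells and a difference of -2.80 ± 0.38 (adjusted p = 0.00608). Ell3 had responses of -2.43 in WT and -4.73 in Bach2-/- cells, a difference of -2.30 ± 0.39 (adjusted p = 0.0156). Sspn and Lmna had response differences of -2.32 ± 0.43 (adjusted p = 0.0223) and -2.13 ± 0.40 (adjusted p = 0.0222). At 0 h both were higher in Bach2-/- than in WT cells, by 2.74 and 2.62, and at 24 h the genotype difference was 0.42 and 0.49 and missed its test. These 4 calls were lost without the block (adjusted p = 0.108 to 0.285). Sspn was lost on leaving out any 1 of 6 arrays (adjusted p from 0.0513 to 0.0634), Lmna any 1 of 6 (adjusted p from 0.0564 to 0.0735) and Ell3 either of 2 (adjusted p from 0.0535 to 0.0559).

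Part of the B cell identity list fell further in stimulated Bach2-/- cells. Of 30 tested, 8 had a lower response difference and 0 a higher one, all exaggerated (unadjusted, 2 higher and 15 lower), beside 3.19% lower among all genes. The median of the list was -0.52 (from -0.84 to -0.17 over the alternatives), with medians of -0.98 for the WT and -1.51 for the Bach2-/- response. The 8 were Bcl11a, Ikzf1, Ms4a1, Pou2f2, Cr2, Tcf3, Cxcr5 and Cd79b. Bcl11a, a lymphoid transcription factor, had responses of -0.87 in WT and -2.41 in Bach2-/- cells, a difference of -1.54 ± 0.25 (adjusted p = 0.0132). Ms4a1, which encodes CD20, had responses of -1.22 in WT and -2.60 in Bach2-/- cells, a difference of -1.38 ± 0.27 (adjusted p = 0.0253). Ikzf1, which encodes Ikaros, and Pou2f2, which encodes OCT2, changed by 0.038 and 0.055 in WT cells, neither past its test, and fell by 1.01 and 1.01 in Bach2-/- cells. Their differences were -1.05 ± 0.18 (adjusted p = 0.0159) and -1.06 ± 0.22 (adjusted p = 0.0297). None of the 8 passed without the block with limma (unadjusted, 0 higher and 8 lower). Leaving out 1 array ended the call of Bcl11a (1 of 12 arrays, adjusted p up to 0.0512), Ikzf1 (6 of 12 arrays, adjusted p up to 0.0622), Ms4a1 (9 of 12 arrays, adjusted p up to 0.0827) and Pou2f2 (9 of 12 arrays, adjusted p up to 0.0988).

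Quiescence and homing genes, which stimulation lowers, gave 6 lower and 0 higher of 26 (unadjusted, 3 higher and 10 lower), beside 1.9% higher and 3.19% lower among all genes. The median was -0.18 (from -0.49 to 0.065 over the alternatives), which is near that of all genes. S1pr4, a sphingosine 1-phosphate receptor, had responses of -2.68 in WT and -4.11 in Bach2-/- cells, a difference of -1.43 ± 0.20 (adjusted p = 0.00731). Klf2, a factor of lymphocyte quiescence, had responses of -3.65 in WT and -5.24 in Bach2-/- cells, a difference of -1.58 ± 0.22 (adjusted p = 0.00792). Ccr7, the receptor that draws lymphocytes toward T cell zones, had a WT response of 0.24 and a Bach2-/- response of -1.03, a difference of -1.27 ± 0.20 (adjusted p = 0.0123), and Klf3 one of -1.29 ± 0.29 (adjusted p = 0.0389). Among 32 receptor signalling genes, Syk, Cr2 and Nfatc3 were lower and 0 were higher (unadjusted, 0 higher and 9 lower), beside 1.9% higher and 3.19% lower among all genes. Syk, the kinase that couples the receptor to its pathway, had responses of -1.59 in WT and -3.17 in Bach2-/- cells, a difference of -1.58 ± 0.23 (adjusted p = 0.00792). Its adjusted p without the block was 0.05. Cr2, complement receptor 2, had responses of -3.99 in WT and -5.0 in Bach2-/- cells and a difference of -1.02 ± 0.21 (adjusted p = 0.0305), and Nfatc3, a calcium-regulated factor, a difference of -0.87 ± 0.20 (adjusted p = 0.0416). Their other probes gave -0.47 for Cr2 and -0.088 for Nfatc3, and neither gene passed on the mean of its probes. Omission of single arrays removed Klf3 (9 of 12 arrays, adjusted p up to 0.115), Cr2 (8 of 12 arrays, adjusted p up to 0.0933) and Nfatc3 (9 of 12 arrays, adjusted p up to 0.119). Without the block, 0 of the quiescence genes passed with limma (unadjusted, 2 higher and 6 lower), and 1 receptor signalling gene did.

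Blunted responses were the most numerous class in the reported fit, but without the block exaggerated responses outnumbered them, 57 to 11, as they did with most single arrays left out. The 6 leading genes among the blunted rises were Dtx4, a Deltex ubiquitin ligase, Rilpl2, a Rab effector, Tnfsf14, which encodes the cytokine LIGHT, Acy1, an aminoacylase, Pcsk4, a proprotein convertase, and Tle6, a Groucho family member. Dtx4 read 0.11, -0.54 and -0.23 in unstimulated and 3.47, 2.95 and 2.93 in stimulated WT cells. It read 0.86, -0.11 and 0.095 in unstimulated and 0.79, 1.03 and 1.09 in stimulated Bach2-/- cells. Stimulated WT arrays lay above all others, and the response difference was -2.65 ± 0.31 (adjusted p = 0.00292), past the test with and without the block. Rilpl2 read 3.03, 2.38 and 2.39 in unstimulated and 7.36, 6.23 and 6.20 in stimulated WT cells. It read 5.16, 4.17 and 4.14 in unstimulated and 6.67, 5.34 and 5.95 in stimulated Bach2-/- cells. Its Bach2-/- cells started 1.89 higher at 0 h and ended -0.61 relative to WT at 24 h, with a response difference of -2.50 ± 0.24 (adjusted p = 0.00112).

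Tnfsf14 rose by 5.36 in WT and 2.98 in Bach2-/- cells, a difference of -2.38 ± 0.53 (adjusted p = 0.0388), which was lost without any 1 of 8 arrays (adjusted p from 0.0562 to 0.108). Acy1, Pcsk4 and Tle6 rose in WT cells by 2.19, 2.69 and 1.67. Their Bach2-/- responses were -0.14, 0.41 and -0.53, none past its test, and the response differences were -2.34 ± 0.30 (adjusted p = 0.00517), -2.29 ± 0.34 (adjusted p = 0.00932) and -2.20 ± 0.37 (adjusted p = 0.0149). Rilpl2, Tnfsf14, Acy1, Pcsk4 and Tle6 did not pass without the block (adjusted p = 0.176 to 0.377).

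Part of the MYC and ribosome biogenesis list rose less in Bach2-/- cells. Of 34 tested, 8 had a lower response difference and 0 a higher one, all 8 blunted rises (unadjusted, 0 higher and 29 lower), beside 3.19% lower among all genes. The median was -0.98 (from -1.30 to -0.69 over the alternatives), with a median WT response of 1.82 and a median Bach2-/- response of 0.69. The 8 were Rrp12, Odc1, Fbl, Nop16, Nhp2, Polr1c, Npm1 and Myc. Rrp12, needed for export of ribosomal subunits, had responses of 2.04 in WT and 0.62 in Bach2-/- cells, a difference of -1.42 ± 0.24 (adjusted p = 0.0163). Odc1, the first enzyme of polyamine synthesis, had responses of 2.61 in WT and 1.29 in Bach2-/- cells, a difference of -1.32 ± 0.26 (adjusted p = 0.028). Fbl, the nucleolar methyltransferase fibrillarin, and Nop16 had differences of -1.02 ± 0.21 (adjusted p = 0.0323) and -1.33 ± 0.29 (adjusted p = 0.0359). Myc read 2.19, 1.15 and 1.83 in unstimulated and 4.58, 3.73 and 3.71 in stimulated WT cells. It read 3.26, 2.27 and 2.27 in unstimulated and 4.15, 1.90 and 3.47 in stimulated Bach2-/- cells. The response difference of Myc was -1.71 ± 0.41 (adjusted p = 0.0477) and passed in 8 of 29 alternatives. Without the block 0 of the 34 passed with limma (unadjusted, 0 higher and 11 lower). Calls that single arrays decided were those of Rrp12 (2 of 12 arrays, adjusted p up to 0.059), Odc1 (8 of 12 arrays, adjusted p up to 0.0917), Fbl (9 of 12 arrays, adjusted p up to 0.104), Nop16 (8 of 12 arrays, adjusted p up to 0.104) and Myc (9 of 12 arrays, adjusted p up to 0.13).

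DNA replication genes gave fewer calls. Of 40 tested, Tk1 and Gins2 were lower and 0 higher, a share near the background (unadjusted, 0 higher and 24 lower). The median was -0.81 (from -1.12 to -0.40 over the alternatives). Tk1, thymidine kinase, had responses of 2.08 in WT and 0.71 in Bach2-/- cells, and Gins2, a subunit of the replicative helicase, of 2.87 in WT and 1.56 in Bach2-/- cells. Both calls were lost without the block (adjusted p = 0.471 to 0.831). With 1 array left out, calls were lost for Tk1 (8 of 12 arrays, adjusted p up to 0.0972), Gins2 (8 of 12 arrays, adjusted p up to 0.124) and Rb1 (10 of 12 arrays, adjusted p up to 0.136). Over the alternatives between 0 and 13 of the 40 genes were lower. Of 32 mitosis genes limma called 0, beside 1.9% higher and 3.19% lower among all genes. At an unadjusted p under 0.05, 1 was higher and 2 were lower, and the list's median was -0.12 (from -0.44 to 0.30 over the alternatives). Without the block limma also called 0, with 0 higher and 1 lower at that level. Mki67, the proliferation marker, had responses of -0.15 in WT and -0.15 in Bach2-/- cells and a response difference of 0.0068 ± 0.43 (adjusted p = 0.994), whose sign turned under median scaling, normexp correction and other alternatives. Of 16 G1 cyclin, CDK and E2F genes, Rb1 was lower, at -0.83 ± 0.19, and 0 were higher (unadjusted, 0 higher and 7 lower), beside 1.9% higher and 3.19% lower among all genes. Rb1 was lost without the block (adjusted p = 0.619) and passed in 6 of 29 alternatives. Ccnd2, a D cyclin, rose by 2.61 in WT and had a response of 0.91 in Bach2-/- cells, and its difference of -1.70 ± 0.43 (adjusted p = 0.0513) missed the threshold, as did that of Ccnd3 at -0.47 ± 0.23 (adjusted p = 0.215).

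NF-κB genes gave 4 lower and 0 higher of 19 (unadjusted, 0 higher and 8 lower), beside 1.9% higher and 3.19% lower among all genes. The median was -0.30 (from -0.61 to 0.027 over the alternatives). Nfkbid, which encodes the nuclear inhibitor IκBNS, rose by 3.09 in WT and by 1.07 in Bach2-/- cells, a difference of -2.02 ± 0.29 (adjusted p = 0.00792). Bcl3, another nuclear IκB protein, had responses of -0.77 in WT and -2.74 in Bach2-/- cells, an exaggerated fall with a difference of -1.97 ± 0.31 (adjusted p = 0.0121). Nfkbia and Tnfaip3, the feedback inhibitors IκBα and A20, had differences of -0.88 ± 0.21 (adjusted p = 0.0454) and -1.06 ± 0.25 (adjusted p = 0.0472), which passed in 6 of 29 and 8 of 29 alternatives. In glycolysis and hypoxia, 2 of 24 genes were higher and 2 lower (unadjusted, 4 higher and 8 lower), beside 1.9% higher and 3.19% lower among all genes. Egln3, an oxygen-sensing prolyl hydroxylase, was at least 16.3-fold higher in Bach2-/- than in WT cells at 24 h, and its response difference was 3.65 ± 0.62 (adjusted p = 0.0158). Slc16a3, a lactate exporter, had one of 0.98 ± 0.22 (adjusted p = 0.042). Egln3 was not well above background on all 12 arrays, so its fitted difference and its place in the list rest in part on dim values. It passed in 19 of 28 alternatives, not with no filter on dim probes, with differences from 1.71 to 4.17. Ldha, lactate dehydrogenase A, and Aldoc, an aldolase, were blunted rises at -1.06 ± 0.25 and -0.99 ± 0.24. In Bach2-/- cells Aldoc fell in each replicate (-0.46, -0.57 and -0.35), a response that missed its own test. Slc16a3, Ldha and Aldoc each passed in only 6 or 7 of 29 alternatives. Of 26 cholesterol and fatty acid genes, Elovl6, a fatty acid elongase, was lower at -1.97 ± 0.33 (adjusted p = 0.0143) and 0 were higher (unadjusted, 0 higher and 9 lower), a share near the 3.19% lower among all genes. Of 19 amino acid transport and tRNA synthetase genes limma called 0, with 1 higher and 6 lower at an unadjusted p under 0.05. None of the calls in the NF-κB, glycolysis and lipid lists passed without the block with limma (unadjusted, 0 higher and 4 lower for NF-κB, 3 higher and 0 lower for glycolysis and 0 higher and 1 lower for the lipid genes). Leaving out 1 array ended the call of Egln3 (2 of 12 arrays, adjusted p up to 0.0539), Slc16a3 (9 of 12 arrays, adjusted p up to 0.117), Ldha (10 of 12 arrays, adjusted p up to 0.118), Aldoc (10 of 12 arrays, adjusted p up to 0.137), Nfkbia (10 of 12 arrays, adjusted p up to 0.125), Tnfaip3 (9 of 12 arrays, adjusted p up to 0.13) and Elovl6 (1 of 12 arrays, adjusted p up to 0.0503).

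Blunted falls were led by Lgals3, which encodes galectin 3, Marco, a macrophage scavenger receptor also reported on B cells, Oasl2, an interferon-stimulated gene, Nck2, an adaptor, Lpar6, a lysophosphatidic acid receptor, and Ngfr, a neurotrophin receptor. Lgals3 read 2.72, 2.56 and 1.89 in unstimulated and -0.46, -0.47 and -0.70 in stimulated WT cells. It read 3.82, 3.18 and 3.18 in unstimulated and 3.25, 3.38 and 3.0 in stimulated Bach2-/- cells. The stimulated WT arrays lay below the other 9, and the Bach2-/- arrays of the 2 times overlapped. The response difference was 2.75 ± 0.25 (adjusted p = 0.000844), past the test with and without the block. Marco, Nck2 and Lpar6 fell in WT cells by 1.71, 1.51 and 1.41, and their differences were 2.39 ± 0.53 (adjusted p = 0.0379), 2.01 ± 0.26 (adjusted p = 0.00469) and 1.77 ± 0.19 (adjusted p = 0.00205). Their Bach2-/- responses were in the direction of a rise, at 0.68, 0.50 and 0.36, none past its test. Ngfr fell in both genotypes, with a difference of 1.74 ± 0.37 (adjusted p = 0.0337). Omission of single arrays removed Marco (9 of 12 arrays, adjusted p up to 0.106) and Ngfr (7 of 12 arrays, adjusted p up to 0.0939). Without the block Marco, Oasl2, Nck2, Lpar6 and Ngfr did not pass (adjusted p = 0.0581 to 0.309). Marco and Mpeg1 are also macrophage markers. The summed linear signal of 12 macrophage and monocyte markers was 32.6 to 68.9 on WT 0 h arrays, 22.8 to 35.8 on WT 24 h arrays, 35.9 to 62.6 on Bach2-/- 0 h arrays and 17.1 to 58.4 on Bach2-/- 24 h arrays, and Cd68, Mrc1, C1qa, C1qc, Clec4f, Fcgr1 and Cd163 were too dim to be tested.

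Several interferon-stimulated genes had a higher response in Bach2-/- than in WT cells. Of 22 tested members 7 passed the test as higher and 0 as lower (unadjusted, 13 higher and 0 lower), beside 1.9% higher among all genes, and all 22 estimates were above 0. The median was 0.78 (from 0.29 to 1.05 over the alternatives), with medians of -2.45 for the WT and -1.52 for the Bach2-/- response. The 7 were Oasl1, Isg15, Ifih1, Oasl2, Rsad2, Irf7 and Ifit1. Oasl2 had responses of -4.0 in WT and -1.97 in Bach2-/- cells, a difference of 2.03 ± 0.27 (adjusted p = 0.00546). Isg15, a ubiquitin-like modifier, had a WT response of -0.018 and rose by 2.72 in Bach2-/- cells, a difference of 2.74 ± 0.31 (adjusted p = 0.00278). Ifih1, which encodes the RNA sensor MDA5, rose by 1.53 and 3.96, a difference of 2.43 ± 0.31 (adjusted p = 0.00469). Without the block 3 of the 7 passed, and over the alternatives between 1 and 9 of the list were higher and 0 lower.

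Sign-changing responses from fall to rise were led, among genes above background on all arrays, by Pcp4, a calmodulin-binding peptide gene, Oasl1, Afp, which encodes alpha-fetoprotein, Hsd11b1, which reactivates glucocorticoids, Ccr9, a gut-homing chemokine receptor, and Serpinb9, a granzyme B inhibitor. Pcp4 read 1.66, 1.53 and 1.26 in unstimulated and 0.22, 0.43 and 0.46 in stimulated WT cells. It read -1.39, -1.38 and -1.54 in unstimulated and 2.90, 2.10 and 2.20 in stimulated Bach2-/- cells. WT arrays fell and Bach2-/- arrays rose from a lower start, and the response difference was 4.95 ± 0.28 (adjusted p = 4.79e-05). Oasl1 read 3.69, 3.41 and 3.84 in unstimulated and 1.74, 1.53 and 2.45 in stimulated WT cells. It read 3.1, 2.40 and 2.60 in unstimulated and 4.84, 5.03 and 5.47 in stimulated Bach2-/- cells. Its stimulated Bach2-/- arrays lay above all other arrays, with a difference of 4.16 ± 0.32 (adjusted p = 0.000302). Both passed in all 29 alternatives. Afp had responses of -2.50 in WT and 1.51 in Bach2-/- cells, a difference of 4.01 ± 0.46 (adjusted p = 0.00278). Hsd11b1, Ccr9 and Serpinb9 had differences of 2.66 ± 0.30 (adjusted p = 0.00278), 2.58 ± 0.29 (adjusted p = 0.00276) and 2.47 ± 0.36 (adjusted p = 0.00843). Hsd11b1 and Ccr9 were lost without the block (adjusted p = 0.106 to 0.14).

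Maf, a large MAF transcription factor, had the largest sign-changing difference, 6.65 ± 0.79 (adjusted p = 0.00333), with responses of -2.48 in WT and 4.17 in Bach2-/- cells. It read -1.48, -1.57 and -0.92 in unstimulated and -4.32, -4.26 and -2.84 in stimulated WT cells. It read -4.0, -4.42 and -3.60 in unstimulated and -0.58, 1.62 and -0.55 in stimulated Bach2-/- cells. It was well above background on 2 of the 3 stimulated WT arrays. Among 19 genes of the AP-1, BACH and small MAF families, Maf was higher and the reported Bach2 probe lower (unadjusted, 5 higher and 1 lower), beside 1.9% higher and 3.19% lower among all genes. Of these, Maf alone passed without the block. Ell2, an elongation factor of secreting plasma cells, had responses of -0.59 in WT and 0.71 in Bach2-/- cells, a difference of 1.30 ± 0.20 (adjusted p = 0.0116).

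In the direction from rise to fall, Marcks, a kinase substrate at the membrane, Csf2rb and Csf2rb2, which encode the β chains of the IL-3, IL-5 and GM-CSF receptors, Mpeg1, which encodes perforin 2, Hes5, a Notch target, and Adora2a, an adenosine receptor, had the largest differences. Marcks read 3.56, 3.55 and 3.67 in unstimulated and 5.82, 5.47 and 5.48 in stimulated WT cells. It read 5.14, 4.86 and 4.79 in unstimulated and 4.09, 3.90 and 4.26 in stimulated Bach2-/- cells. Bach2-/- cells began 1.34 higher and ended at -1.51 relative to WT, and the response difference was -2.85 ± 0.21 (adjusted p = 0.000249). Hes5 read 2.77, 1.92 and 1.92 in unstimulated and 3.99, 2.54 and 3.14 in stimulated WT cells. It read 2.50, 1.51 and 1.67 in unstimulated and 0.45, 0.12 and 0.51 in stimulated Bach2-/- cells. The stimulated Bach2-/- arrays were the lowest of the 4 groups, with a difference of -2.55 ± 0.30 (adjusted p = 0.00333). Csf2rb and Csf2rb2 had differences of -2.59 ± 0.24 (adjusted p = 0.000844) and -2.78 ± 0.31 (adjusted p = 0.00219). They are close paralogs, and their probes may share signal. Mpeg1, Adora2a and Gadd45b, a stress-response gene, had differences of -2.71 ± 0.35 (adjusted p = 0.00488), -2.39 ± 0.28 (adjusted p = 0.00315) and -2.37 ± 0.24 (adjusted p = 0.00137). Marcks, Csf2rb2, Adora2a and Gadd45b passed with and without the block, and Csf2rb, Mpeg1 and Hes5 did not (adjusted p = 0.0664 to 0.162).

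Marcks and Hes5 belong to the list of marginal zone B cell genes, a neighbouring B cell subset that a follicular sort could hold. Of 15 tested, 5 were lower (Marcks, Hes5, Dtx1, Cr2 and S1pr3) and 2 higher (Cd9 and Tm6sf1) (unadjusted, 2 higher and 8 lower), beside 1.9% higher and 3.19% lower among all genes. The median was -0.81 (from -1.13 to -0.44 over the alternatives). Of these 7, Marcks alone passed without the block. Their summed linear signal was 343 to 462 on WT 0 h arrays, 191 to 388 on WT 24 h arrays, 578 to 1023 on Bach2-/- 0 h arrays and 309.9 to 457 on Bach2-/- 24 h arrays, so it was highest in unstimulated Bach2-/- cells. Its part in the result was not tested. S1pr3, lower by its response difference, had a higher level in Bach2-/- than in WT cells at 0 h and at 24 h. Dtx1, a Notch target, had a difference of -1.10 ± 0.20 (adjusted p = 0.0212) and Cd9, a tetraspanin, one of 1.34 ± 0.25 (adjusted p = 0.0226). Among 13 B-1 cell markers Ctla4 and Cd5 were higher and Plscr1 lower, at 2.99 ± 0.51, 1.06 ± 0.22 and -1.39 ± 0.28 (unadjusted, 4 higher and 4 lower), beside 1.9% higher and 3.19% lower among all genes. Their summed signal was 44.1 to 77.1 on WT 0 h arrays, 66.7 to 74.1 on WT 24 h arrays, 69.8 to 90.9 on Bach2-/- 0 h arrays and 137 to 154 on Bach2-/- 24 h arrays. Ctla4 was not well above background on all 12 arrays, so its fitted difference rests in part on dim values. Of 9 immature B markers Cd24a was lower, at -1.34 ± 0.33 (adjusted p = 0.0494), and 0 were higher (unadjusted, 0 higher and 2 lower), beside 1.9% higher and 3.19% lower among all genes. Without the block 0 genes of either list passed with limma (unadjusted, 2 higher and 2 lower for B-1 and 0 higher and 1 lower for immature B markers). Calls that single arrays decided were those of Cd9 (5 of 12 arrays, adjusted p up to 0.0801), Dtx1 (8 of 12 arrays, adjusted p up to 0.0758), Cr2 (8 of 12 arrays, adjusted p up to 0.0933), Ctla4 (1 of 12 arrays, adjusted p up to 0.0544), Cd5 (8 of 12 arrays, adjusted p up to 0.0963), Plscr1 (9 of 12 arrays, adjusted p up to 0.0901) and Cd24a (10 of 12 arrays, adjusted p up to 0.136).

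Early receptor-response and MAP kinase feedback genes gave 7 higher and 1 lower of 26 (unadjusted, 8 higher and 5 lower), beside 1.9% higher and 3.19% lower among all genes. The median was 0.46 (from 0.15 to 0.68 over the alternatives). The higher genes were Rgs16, Ier3, Dusp6, Spry1, Spred1, Dusp4 and Dusp2, and Nr4a1 was lower. Without the block the list gave 2 higher and 0 lower, Rgs16 and Ier3. Ier3, an immediate early gene, rose at least 1.77-fold in WT and at least 12-fold in Bach2-/- cells, a difference of 2.55 ± 0.26 (adjusted p = 0.00135). Dusp6, an ERK phosphatase, had responses of -2.55 in WT and -0.95 in Bach2-/- cells, a blunted fall of 1.61 ± 0.23 (adjusted p = 0.00843). Spry1, a feedback inhibitor of receptor kinases, had responses of -0.36 in WT and 2.65 in Bach2-/- cells, a difference of 3.02 ± 0.52 (adjusted p = 0.0158). Dusp6 and Spry1 did not pass without the block (adjusted p = 0.157 to 0.16). Ier3 and Spry1 were not well above background on all 12 arrays, so their fitted differences rest in part on dim values.

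Plasma cell genes gave 4 higher and 0 lower of 21 (unadjusted, 13 higher and 1 lower), beside 1.9% higher and 3.19% lower among all genes. The median was 0.76 (from 0.45 to 0.86 over the alternatives). Besides Ell2 and Cd9, Txndc5, an endoplasmic reticulum oxidoreductase, and Ly6c1 were higher, at 1.22 ± 0.28 and 0.87 ± 0.22, and they passed in 9 of 29 and 4 of 29 alternatives. Prdm1 read -2.05, -1.68 and -1.13 in unstimulated and -3.35, -2.26 and -1.59 in stimulated WT cells. It read 1.94, 1.65 and 1.70 in unstimulated and 2.49, 2.27 and 2.86 in stimulated Bach2-/- cells. Bach2-/- arrays lay above WT arrays at both times, and its response difference of 1.55 ± 0.44 (adjusted p = 0.0684) missed the threshold. Unfolded protein and stress-response genes gave 3 higher and 0 lower of 29 (unadjusted, 14 higher and 0 lower), beside 1.9% higher and 3.19% lower among all genes. The median was 0.52 (from 0.21 to 0.70 over the alternatives). The 3 were Trib3, Chac1 and Manf, at 1.29 ± 0.30, 1.56 ± 0.37 and 1.11 ± 0.26, and none of the calls in either list passed without the block with limma (unadjusted, 9 higher and 0 lower for plasma cell and 9 higher and 0 lower for stress-response genes). With 1 array left out, calls were lost for Cd9 (5 of 12 arrays, adjusted p up to 0.0801), Txndc5 (10 of 12 arrays, adjusted p up to 0.116), Ly6c1 (11 of 12 arrays, adjusted p up to 0.135), Trib3 (10 of 12 arrays, adjusted p up to 0.124), Chac1 (11 of 12 arrays, adjusted p up to 0.117) and Manf (10 of 12 arrays, adjusted p up to 0.117).

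Of 26 p53 target genes, 2 were higher (Cdkn1a and Gadd45a) and 6 lower (Gadd45b, Dcxr, Fas, Ddb2, Bbc3 and Zmat3) (unadjusted, 3 higher and 11 lower), beside 1.9% higher and 3.19% lower among all genes. The median was -0.35 (from -0.67 to -0.17 over the alternatives). Without the block Cdkn1a and Gadd45b passed and the other 6 did not. Gadd45a, a stress-response gene, had responses of -0.28 in WT and 1.42 in Bach2-/- cells, a difference of 1.71 ± 0.28 (adjusted p = 0.0129), and Dcxr, a xylulose reductase, had one of -1.24 ± 0.25 (adjusted p = 0.0278). In the BCL2 family and death genes, Bmf was higher and Bid, Fas and Bbc3 lower of 20 (unadjusted, 2 higher and 8 lower), beside 1.9% higher and 3.19% lower among all genes. Bmf, a BH3-only death factor, had responses of -0.16 in WT and 1.52 in Bach2-/- cells, a difference of 1.67 ± 0.28 (adjusted p = 0.0156). Bid, also BH3-only, had one of -1.38 ± 0.25 (adjusted p = 0.0193), the death receptor Fas one of -1.28 ± 0.26 (adjusted p = 0.0297) and Bbc3, which encodes PUMA, one of -1.03 ± 0.22 (adjusted p = 0.0345). Bbc3 rose less in Bach2-/- cells, but its level was higher there than in WT cells at 0 h and at 24 h. The level of Bmf was lower in Bach2-/- cells at 0 h, and its genotype difference at 24 h missed its test. The 4 death-gene calls, Gadd45a and Dcxr were lost without the block (adjusted p = 0.0862 to 0.75). Leaving out 1 array ended the call of Dcxr (9 of 12 arrays, adjusted p up to 0.0839), Bmf (3 of 12 arrays, adjusted p up to 0.0568), Bid (6 of 12 arrays, adjusted p up to 0.069), Fas (10 of 12 arrays, adjusted p up to 0.095) and Bbc3 (8 of 12 arrays, adjusted p up to 0.109).

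Of 21 cytokine receptor and SOCS genes, Il2rb was higher and Csf2rb, Il5ra, Il6ra, Socs3 and Cish lower (unadjusted, 2 higher and 7 lower), beside 1.9% higher and 3.19% lower among all genes. The median was -0.20 (from -0.51 to 0.026 over the alternatives). Il2rb and Il5ra passed without the block and the other 4 did not. Cish, lower by its response difference, had a higher level in Bach2-/- than in WT cells at 0 h and at 24 h. Il6ra, the IL-6 receptor, had responses of -1.26 in WT and -2.56 in Bach2-/- cells, a difference of -1.29 ± 0.22 (adjusted p = 0.0159). Among 28 activation and costimulation genes, Lta and Il6 were higher and Ccr7, Cd274 and Icosl lower (unadjusted, 2 higher and 6 lower), beside 1.9% higher and 3.19% lower among all genes. Lta, which encodes lymphotoxin α, had responses of -4.22 in WT and -2.60 in Bach2-/- cells, a blunted fall of 1.62 ± 0.20 (adjusted p = 0.00407). Icosl, the ICOS ligand, and Cd274, which encodes PD-L1, had differences of -1.35 ± 0.28 (adjusted p = 0.0319) and -0.96 ± 0.20 (adjusted p = 0.0297). Among 17 inhibitory receptor and phosphatase genes, Ctla4 and Cd5 were higher and Cd274 lower (unadjusted, 5 higher and 3 lower), beside 1.9% higher and 3.19% lower among all genes. Ctla4 rose at least 3.33-fold in Bach2-/- cells, a difference of 2.99 ± 0.51 (adjusted p = 0.0155), and Cd5, an inhibitory coreceptor, had one of 1.06 ± 0.22 (adjusted p = 0.0294). Ctla4 was not well above background on all 12 arrays, so its fitted difference and its place in the list rest in part on dim values. It passed in 21 of 28 alternatives, not under normexp correction, and its difference was as low as 0.38. In the S100 and annexin list, Anxa1 and Anxa2 were higher and Anxa4 lower of 15, at 1.57 ± 0.24 (adjusted p = 0.0109), 1.32 ± 0.27 (adjusted p = 0.028) and -1.15 ± 0.22 (adjusted p = 0.0243) (unadjusted, 2 higher and 4 lower), beside 1.9% higher and 3.19% lower among all genes. In the costimulation, inhibitory receptor and annexin lists 0 genes passed without the block with limma (unadjusted, 2 higher and 5 lower, 3 higher and 2 lower, and 2 higher and 1 lower). None of Il6ra, Lta, Icosl, Cd274, Ctla4, Cd5 and these annexins passed without the block (adjusted p = 0.0831 to 0.614). Omission of single arrays removed Il6ra (5 of 12 arrays, adjusted p up to 0.0575), Icosl (7 of 12 arrays, adjusted p up to 0.0945), Cd274 (8 of 12 arrays, adjusted p up to 0.101), Ctla4 (1 of 12 arrays, adjusted p up to 0.0544), Cd5 (8 of 12 arrays, adjusted p up to 0.0963), Anxa2 (7 of 12 arrays, adjusted p up to 0.0836) and Anxa4 (9 of 12 arrays, adjusted p up to 0.0824).

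Markers of cells other than B cells were tested as well. Of 19 T cell markers Cd5, also a B-1 cell gene, was the 1 past the test, but the median was 1.05 (from 0.37 to 1.36 over the alternatives), and 10 were higher and 1 lower at an unadjusted p under 0.05. Their summed linear signal was 128 to 145 on WT 0 h arrays, 94.3 to 148 on WT 24 h arrays, 128 to 150.4 on Bach2-/- 0 h arrays and 91.1 to 111 on Bach2-/- 24 h arrays. NK markers gave Il2rb and Klre1 higher and 0 lower of 11 (unadjusted, 4 higher and 1 lower). Macrophage markers gave Marco higher and Mpeg1 lower of 12 (unadjusted, 4 higher and 1 lower). Dendritic cell markers gave Ccr9 higher and Flt3 lower of 10 (unadjusted, 4 higher and 1 lower). The lists of this paragraph stand beside 1.9% higher and 3.19% lower among all genes, and 27% in either direction unadjusted. Klre1 and Flt3 had differences of 1.89 ± 0.41 (adjusted p = 0.0357) and -1.50 ± 0.37 (adjusted p = 0.0489). Klre1 was not well above background on all 12 arrays, so its difference rests in part on dim values, and it passed in 10 of 28 alternatives. Without the block, Il2rb was the 1 gene of the T cell, NK, macrophage and dendritic cell lists past the test. Calls that single arrays decided were those of Cd5 (8 of 12 arrays, adjusted p up to 0.0963), Klre1 (8 of 12 arrays, adjusted p up to 0.102), Flt3 (8 of 12 arrays, adjusted p up to 0.136) and Marco (9 of 12 arrays, adjusted p up to 0.106). Neutrophil markers gave 0 of 12 with limma (0 higher and 1 lower at an unadjusted p under 0.05), and erythroid and platelet markers 0 of 11 (1 higher and 0 lower). The erythroid and platelet sum was 13.1 to 21.9 on WT 0 h arrays, 12.9 to 15 on WT 24 h arrays, 34.3 to 99.9 on Bach2-/- 0 h arrays and 19.3 to 43.3 on Bach2-/- 24 h arrays. The part of these cells in the results was not tested.

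**Figure D3:**
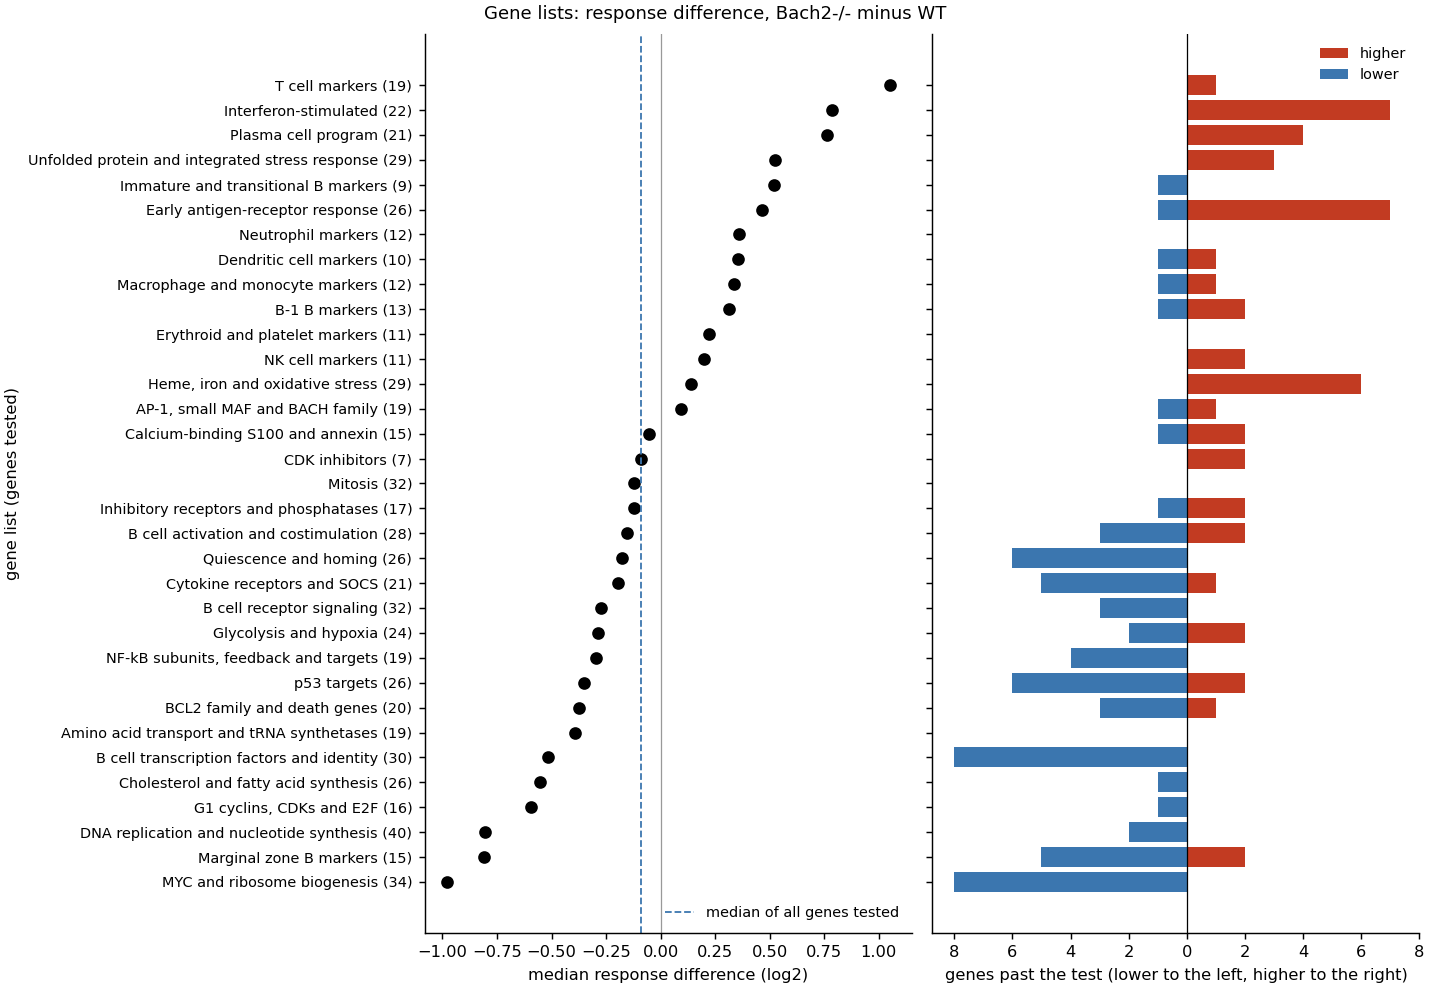
Median response difference (left, log2) of the tested members of each gene list (rows), with a dashed line at the median of all genes, -0.088, and the number of members past the test (right), lower in blue and higher in red. Interferon-stimulated genes lie to the right of the line and MYC and ribosome biogenesis genes to the left.

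The same 1157 genes were also viewed as genotype differences at each time. At 0 h 850 genes (3.74%) differed by genotype over all genes, and at 24 h 4466 (19.6%). Of the 1157, 847 differed at 24 h only, with 334 higher and 513 lower in Bach2-/- cells. Hmox1, Cdkn1a, Il2rb and Acod1 were among the 334, and Dtx4, Prr7, Il5ra and Hes5 among the 513. A further 140 differed at 0 h only, 108 of them higher in Bach2-/- cells, such as Adora2a, Sspn and Lmna, and 32 lower, such as Bmf. Genotype order turned over in 39, with 27 higher at 0 h and lower at 24 h, such as Marcks, Mpeg1 and Rilpl2, and 12 the other way, such as Maf, Pcp4 and Oasl1. In 55 the difference kept its sign, with 44 higher at both times, such as Rgs16, Lgals3 and Ccr9, and 11 lower, such as Cr2. In 76, such as Myc, neither difference passed its own test.

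**Figure D4:**
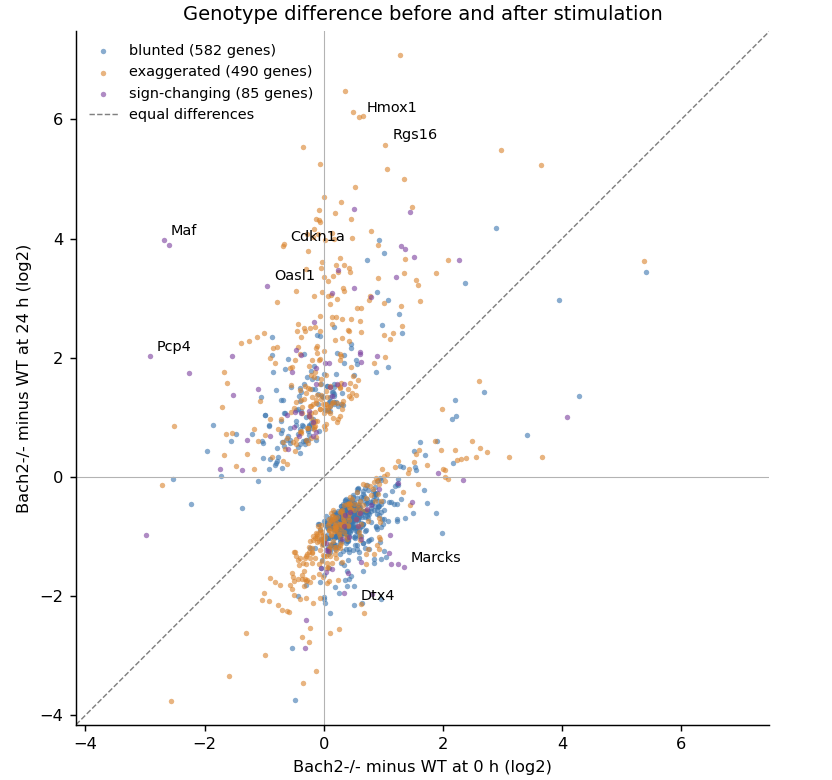
Genotype difference (Bach2-/- minus WT, log2) at 0 h (x axis) against 24 h (y axis) for the 1157 genes past the test, coloured by class. Vertical distance from the line of equal difference is the response difference, and most genes spread along the 24 h axis.

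Response differences were also compared between replicate numbers. Taken within each number, the differences of 22525 genes correlated across genes at r = 0.41, 0.51 and 0.50 for numbers 1 and 2, 1 and 3, and 2 and 3. Genes are not independent replicates, and the numbers 2 and 3 share a slide. The medians of all genes were -0.18, -0.075 and -0.079. With 3 differences, a sign-flip permutation test cannot give a p under 0.25, so single genes rest on the spread that limma pools over genes. Of the named genes past the test, 30 passed with and without the block and 77 only with it. Hmox1, Cdkn1a, Il2rb, Acod1, Pcp4, Oasl1, Plau and Cdkn2b passed in every alternative in which they were tested. Plau and Cdkn2b were tested in 28 alternatives and not in that on probes above background on all 12 arrays. Their fitted differences rest on dim values, unlike those of the other genes named here.

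**Figure D5:**
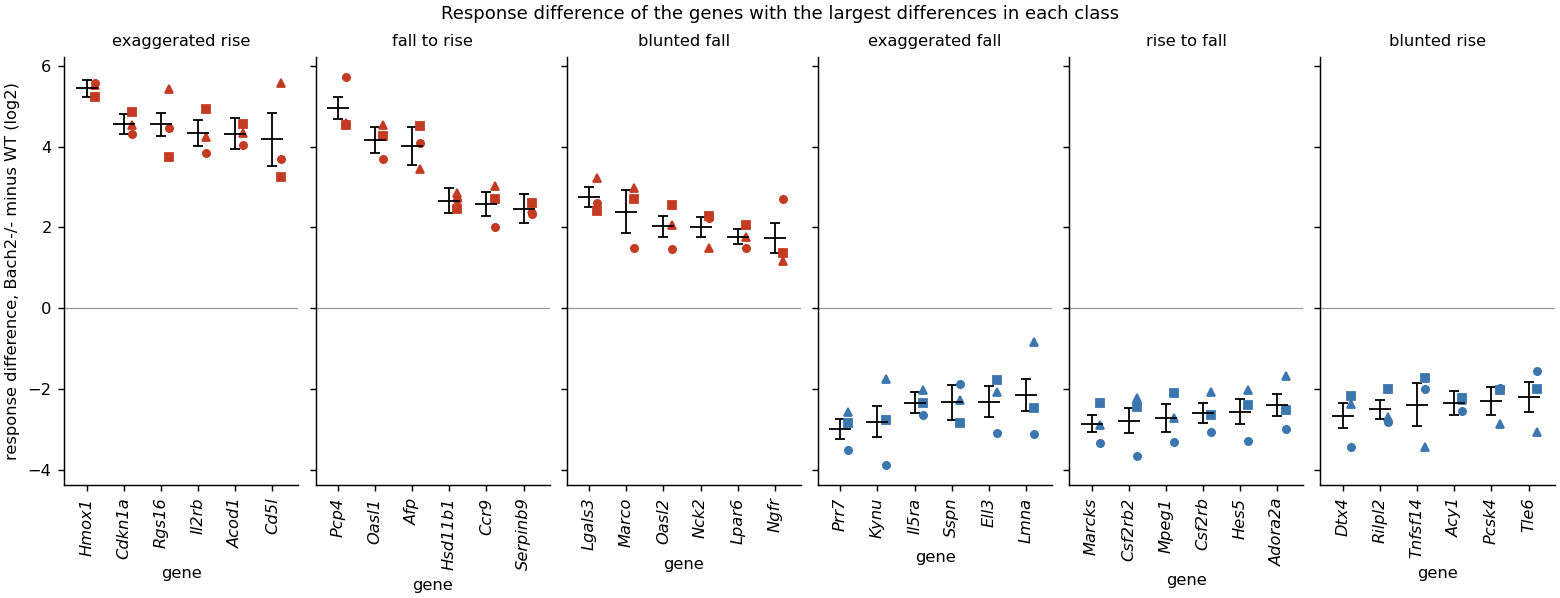
Response difference (log2) within each replicate number for the leading genes of each class direction, with 1 coloured point per number and a black bar at the fitted value ± SE. The 3 points of each gene lie on the same side of 0, which the rule for choosing these genes required.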

How the data were processed

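The values analysed were scanner intensity values of 12 Agilent 1-colour arrays, deposited by the authors, which Agilent Feature Extraction 10.7.3.1 had background-subtracted and detrended within each array, per the file headers. Control type and spot flags, the other scanner columns used, were also taken as deposited. From them, outlier spots were left out, the processed signal of non-control spots was averaged over the spots of a probe, divided by the array's 75th percentile over all non-control spots, floored at 0.01 and taken to log2. The filter kept the 30735 probes that cleared the background in every sample of 1 or more groups, and a gene with several probes was represented by the one with the highest mean signal. Names came from RefSeq (GRCm38.p6) for 26413 of 55681 probes and from the array files for the rest. Bach2 was the 1 named gene past the test whose probes disagreed in sign, and genes not past it were not checked.

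The model (limma 3.58.1, R 4.3.3) had 4 groups and the replicate number, with empirical Bayes variances (prior df 3.68, residual df 6). In 219 genes an outlier spot left out an array, and 4 groups were fitted on the rest. The replicate number came from the labels. Every same-number pair of arrays deviated together (r over 0.1), but so did every pair of other numbers on slide 1 (r from 0.25 to 0.64). These values therefore cannot tell a shared replicate number from a shared slide, and whether the numbers pair samples was not tested. Genes were named by a rule: Bach2, the 6 largest differences of each class direction, the 4 largest dim genes, the 4 smallest adjusted p of each list, and Cdkn1a, Cdkn1b, Cdkn2a, Cdkn2b, Ccnd2, Ccnd3, Myc, Mki67, Hmox1 and Prdm1. Other list members past the test were named after their values were seen. A dim gene that the rule names is not reported here. The members and lists were chosen with earlier results of these data known. The code was tested on simulated data. Alternatives covered the block, scaling, background correction (normexp, offset 50), filters, probe choice, the variance model, single arrays and replicate numbers. The set without the 5 arrays with Xist signal was added after seeing the files.

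The authors' deposited whole-series table of log2 values was an alternative. Its column medians, by replicate, were -0.039, 0.16 and 0.014 in unstimulated WT, -0.27, 0.11 and 0.011 in stimulated WT, -0.26, -0.097 and -0.031 in unstimulated Bach2-/- and -0.27, 0.49 and 0.071 in stimulated Bach2-/- cells. Its values followed the probe-centred scanner values at r of 0.998 or more in every array, so scale and direction were the same, while the centring value and normalisation stay unstated. The number of arrays limits the precision of every value.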

Additional observations from a re-analysis of the deposited data

Results flagged for a closer look

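The response difference was itself a test between genotypes under the same contrast, so every gene past it was picked out: 1157 genes, with 582 blunted, 490 exaggerated and 85 sign-changing responses. Among the named genes, 15 had responses past their own test in opposite directions in the 2 genotypes, and the difference between them was past its test as well.

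WT cells rose and Bach2-/- cells fell for Marcks at -2.85, Csf2rb2 at -2.78, Mpeg1 at -2.71, Csf2rb at -2.59, Hes5 at -2.55, Adora2a at -2.39 and Gadd45b at -2.37 (response difference, log2). The opposite direction held for Ell2 at 1.30, Serpinb9 at 2.47, Ccr9 at 2.58, Hsd11b1 at 2.66, Afp at 4.01, Oasl1 at 4.16, Pcp4 at 4.95 and Maf at 6.65. Outlying values within a group were not tested for, since each group has 3 arrays.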

How the results depend on the processing

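Of the named genes past the test, which were chosen for their difference on these same arrays, 15 passed in every alternative that tested them other than the one without the 5 arrays with Xist signal, and 8 of the 15 passed in that one too. The 8 include the dim genes Plau and Cdkn2b, which were not tested on probes above background on all 12 arrays. Without the replicate block 78 genes passed (11 blunted, 57 exaggerated, 10 sign-changing). With the slide as the block 386 were blunted. A replicate block for each genotype gave 506 genes, 208 blunted and 236 exaggerated. Median scaling left 383 blunted and 51 sign-changing, and normexp correction 43 sign-changing. With no filter on dim probes 253 passed (81, 143 and 29 of the 3 classes), and with only probes above background on all 12 arrays 1068 were blunted. A mean-variance trend gave 2461 genes, 1521 blunted and 827 exaggerated. Slide 1 alone gave 125 (28, 74 and 23), the set without the 2 doubted arrays 287 (81, 157 and 49) and the set without the 5 arrays with Xist signal 11 (0, 9 and 2).

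Leaving out 1 array or 1 replicate number gave 61 to 2990 genes past the test, 11 to 1971 blunted, 40 to 862 exaggerated and 10 to 135 sign-changing responses. The extremes were replicate number 3 (61) and WT 0 h replicate 2 (2990). Without 1 array the count fell to 276 for WT 0 h replicate 3, 294 for Bach2-/- 0 h replicate 2, 316 for WT 24 h replicate 1, 359 for Bach2-/- 0 h replicate 3, 372 for WT 24 h replicate 3 and for Bach2-/- 0 h replicate 1, 401 for WT 0 h replicate 1, 410 for WT 24 h replicate 2 and 615 for Bach2-/- 24 h replicate 1. The cause was not tested.

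Neither Mki67 nor Cdkn1b passed the test, and both changed sign. Mki67 was -0.31 under median scaling, -0.061 under normexp, -0.0011 in the deposited table and -0.43 without the 5 arrays, and ran from -0.44 to 0.27 with 1 array or number left out. Cdkn1b was 0.10 under quantile normalisation, 0.044 on slide 1 alone and 0.18 without the 5 arrays, and ran from -0.48 to 0.044 with 1 array or number left out. With 3 arrays a group, dim genes have only bounds on 1 side.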
